A study of Homo sapiens with 2 samples.

Results

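The BCL2 family genes described here are 10 genes whose products decide whether a cell keeps or breaks its outer mitochondrial membrane: BCL2, BCL2L1, MCL1, BCL2L11, BID, BAD, BAX, BAK1, PMAIP1 and BBC3. They are 10 of 20033 protein-coding genes. Their members in the data are the H3K27ac peaks that lie inside or within 50 kb of their RefSeq gene records on the hg38 build. That rule gave 51 of 19671 peaks of the ERG library, with a peak at all 10 genes beside 74% of coding genes. It gave 25 of 9161 peaks of the Vector library, with a peak at 9 genes beside 58.5%. The rule used positions only and no measured value. Both libraries were made from F36P, a human acute erythroid leukaemia line kept in culture. The ERG group holds 1 library from cells that overexpress ERG, an ETS-family transcription factor, from the retroviral plasmid MSCV-PIG-AM-ERG. The Vector group holds 1 library from cells given the empty MSCV-PIG plasmid and labelled WT for genotype. All cells of both groups were kept in puromycin at 1 µg/ml for 4 days, and the sources used here do not say whether pools or clones were sequenced, nor what AM means. H3K27ac, acetylated lysine 27 of histone H3, marks active promoters and enhancers.

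The family works as a switch with 3 kinds of part. The guard proteins BCL2, BCL-XL (from BCL2L1) and MCL1 hold the other members in check. The BH3-only proteins, BIM (from BCL2L11), BID, BAD, NOXA (from PMAIP1) and PUMA (from BBC3), bind the guards or switch on the effectors. The effectors BAX and BAK (from BAK1) open the outer mitochondrial membrane, which releases cytochrome c and starts the caspases. In erythroid cells BCL-XL is known as a main survival protein of the maturing red cell.

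The ERG library had the longer list, and the greater depth as judged from peak backgrounds and not from read counts. Fragments and local backgrounds were recovered from the authors' own fold and p-value of each peak. The lowest background, called the genome level, was 2.31 fragments for the ERG library against 1.603 for the Vector library, and their ratio of 1.44 serves as the relative depth. At 8071 pairs of shared peaks with whole-number fragment counts in both libraries, the ERG library had a median of 2.07 times the summit fragments of the Vector library. That is more than the relative depth. Of 15 erythroid marker genes, 10 had a start-site peak in both libraries, LMO2 and ALAS2 in the ERG library alone, and ANK1, HBG1 and SLC4A1 in neither. Of 20 neuronal, fibroblast, epithelial, lymphoid and endothelial markers, PECAM1 had a start-site peak, in the ERG library alone, and the other markers had none in either. With 1 library per group nothing was tested. Intervals of ratios cover the counting error of fragments only. Intervals of shares treat genes or peaks as independent draws, which neighbouring peaks and chosen genes need not be. Neither kind covers the spread between libraries. In bulk chromatin a lower peak may stand for fewer cells with the mark or fewer marked copies per cell, which cannot be told apart. Nor can a difference in how each library was prepared be told apart from one between the cells, since each group holds 1 library.

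A peak lies on the promoter window of 6 members, and 4 of them are shown, 2 with a start-site peak in the ERG library alone and 2 with one in both. The windows of BCL2L1, covered over 300 bases in both libraries, and of BCL2L11, covered over 6 bases in the ERG library, are not printed. Each is 250 bases before to 50 after a start site listed in RefSeq for GRCh38.p14, whose chromosome coordinates are those of hg38. Starts were listed for 9 of the 10 genes, all but MCL1. Where a gene had several starts, the window with most bases under peaks is given. BAD (chr11:64284655-64284954, minus strand) and BID (chr22:17773993-17774292, minus strand) had a start-site peak in the ERG library alone. PMAIP1 (chr18:59899746-59900045, plus strand) and BAX (chr19:48954625-48954924, plus strand) had one in both libraries. Capitals mark GGAA on either strand, the core that ETS factors such as ERG recognise, and the E box CACGTG.
BAD: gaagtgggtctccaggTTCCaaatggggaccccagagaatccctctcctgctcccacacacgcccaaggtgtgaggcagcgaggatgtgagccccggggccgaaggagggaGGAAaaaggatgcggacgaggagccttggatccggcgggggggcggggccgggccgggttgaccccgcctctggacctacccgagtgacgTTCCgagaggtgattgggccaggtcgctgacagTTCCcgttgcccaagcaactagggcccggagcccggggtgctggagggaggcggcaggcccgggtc
BID: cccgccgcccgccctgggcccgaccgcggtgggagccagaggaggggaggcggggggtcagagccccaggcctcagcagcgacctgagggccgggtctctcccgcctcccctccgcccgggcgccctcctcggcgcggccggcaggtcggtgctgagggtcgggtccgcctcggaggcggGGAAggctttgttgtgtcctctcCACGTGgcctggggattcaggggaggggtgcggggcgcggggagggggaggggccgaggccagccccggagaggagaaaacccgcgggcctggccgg
PMAIP1: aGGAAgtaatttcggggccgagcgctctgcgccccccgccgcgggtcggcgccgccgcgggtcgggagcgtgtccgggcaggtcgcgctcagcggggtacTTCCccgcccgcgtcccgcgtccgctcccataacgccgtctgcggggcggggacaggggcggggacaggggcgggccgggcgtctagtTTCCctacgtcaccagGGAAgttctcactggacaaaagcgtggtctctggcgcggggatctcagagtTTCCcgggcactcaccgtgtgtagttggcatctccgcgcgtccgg
BAX: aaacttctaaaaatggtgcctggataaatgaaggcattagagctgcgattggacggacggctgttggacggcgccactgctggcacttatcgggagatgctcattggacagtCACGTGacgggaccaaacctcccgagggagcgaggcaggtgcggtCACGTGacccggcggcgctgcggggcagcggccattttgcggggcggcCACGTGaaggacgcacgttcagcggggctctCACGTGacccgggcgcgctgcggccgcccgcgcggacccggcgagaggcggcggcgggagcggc

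All 300 bases of the BAD window lay under the ERG-library peak, as did all 300 bases of the PMAIP1 window, of which 14 were also under the Vector-library peak. The ERG-library peak covered 171 bases of the BID window and 88 of the BAX window, and the Vector-library peak covered 21 bases of the BAX window. The core GGAA was found at 5 places in the PMAIP1 window, 4 in BAD, 1 in BID and 0 in BAX. That core is common, with at least 1 match in 95.5% of 35116 promoter windows and at least 4 in 46.0%. The longer ETS sequence CCGGAAGT, present in 4.14% of the windows, was in none of the 4 shown. Among all 15 windows of the 9 genes it was found once, at the upstream start of BCL2L1. The GATA motif AGATAA (10.3% of windows, both strands) was in none of the 15. The SP/KLF motif GGGCGG, present in 44.95% of windows, matched 4 times in PMAIP1, 3 times in BID, 2 times in BAX and 1 time in BAD. BAX held 4 copies of CACGTG, which 7.26% of windows hold at least once and 5 of the 35116 at least 4 times, a count looked up after its value was seen. A match is a description of letters and not a bound site.

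Of the 10 genes, 5 had a start-site peak in the ERG library alone, 4 in both libraries and BBC3 in neither. A start-site peak is one within 1 kb of a listed start, or of either end of the gene record for MCL1. Across all coding genes the shares were 15.4% for the ERG library alone, 31.1% for both, 0.339% for the Vector library alone and 53.1% for neither. Of the 6 members without a Vector-library start-site peak, 5 had one in the ERG library, 83.3% (exact 95% interval 35.9 to 99.6), beside 22.5% of all such coding genes. With the ERG list shortened to as many top-scoring peaks as the Vector list, 2 of the 5 were left, BCL2 and BAD. The 22.5% belongs to the full list, and no share over all coding genes was taken for the shortened one. Whether the members differ from other genes there cannot be told. The 4 with a peak in both libraries came from every role: the guards BCL2L1 and MCL1, the effector BAX and the BH3-only gene PMAIP1.

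**Figure D1:**
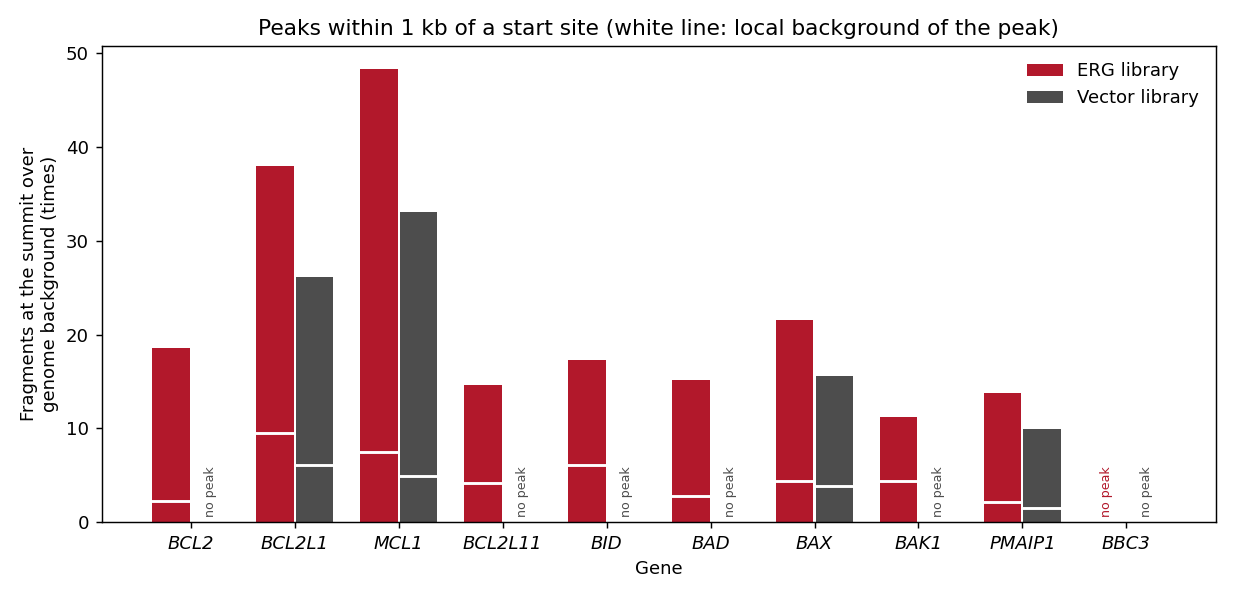
Height of the strongest peak within 1 kb of a start site for each gene (vertical axis: fragments at the summit divided by the lowest background of that library, times), ERG library left in red and Vector library right in grey; white lines give the local background of the same peak. MCL1 and BCL2L1 are the highest in both libraries, and BCL2, BCL2L11, BID, BAD and BAK1 have a bar in the ERG library alone.

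Among the guards, BCL2 had its start-site peak in the ERG library alone. BCL2, the target of venetoclax-type drugs, lies on chromosome 18 from 63123346 to 63320090 on the minus strand. The ERG-library peak at 63320440 to 63321208 held 43 fragments at its summit over a local background of 5.27, which is 18.6 times the genome level, and the Vector list had no peak there. It lay upstream of the gene, 350 bp beyond the gene record. By its q-value it ranked above 96.3% of the ERG-library peaks that have no Vector-library counterpart. Scaled to the depth of the Vector library, it would hold 29.8 fragments, where 13 would make a peak over the scaled background. Here and below, a scaled count makes a peak when its −log10 p-value reaches 3.98, the lowest in the Vector list. Peak width and counting error were left out of that reckoning. 3 further ERG-library peaks lay far inside the gene, 66440, 120485 and 180716 bp from the start. They held 17, 17 and 13 fragments, among the weakest of the list. At the Vector depth 1 of the 3 would pass, and none would when scaled by the ratio at shared peaks. The only Vector-library peak in the window was 46.9 kb away, at the start of the neighbour KDSR, a sphingolipid enzyme gene, with 19 fragments against 36 in the ERG library.

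BCL2L1, the gene of BCL-XL, carried a start-site peak in both libraries and a row of peaks inside the gene in the ERG library alone. It lies on chromosome 20 from 31664452 to 31723963, minus strand. The start-site peak had 88 fragments in the ERG library (31721587 to 31723590) against 42 in the Vector library (31722633 to 31723572). After division by the relative depth the ratio was 1.45, with a counting interval of 0.994 to 2.15, and 51.8% of all shared peaks had a lower one. Both peaks covered the downstream of its 2 listed starts and stopped short of the upstream start. The other 4 ERG-library peaks inside BCL2L1 had no Vector-library counterpart. The strongest of them, at 31675154 to 31675880 and 46988 bp from the nearer start, had 120 fragments, more than the start-site peak, over a local background of 35.5. Scaled to the Vector depth it would hold 83.1 fragments where 45 would make a peak. The other 3 held 67, 54 and 41 fragments. At the Vector depth they would hold 46.4, 37.4 and 28.4, where 45, 33 and 29 would make a peak. The weakest of them therefore falls just short at that depth. Scaled by the ratio at shared peaks instead, the inner peaks with 120 and 54 fragments would pass, and those with 67 and 41 would not. Local backgrounds of the 4 peaks were 8.39 to 15.5 times the genome level, beside a median of 3.36 times over all ERG-library peaks.

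MCL1, a short-lived guard, had the highest start-site peak of the family in each library. The gene spans 5053 bp on chromosome 1 from 150574558 to 150579610. At its higher-coordinate end the ERG library had 112 fragments (150578600 to 150580178) and the Vector library 53 (150578747 to 150579569). These are 48.4 and 33.1 times the genome level, and they place the peaks in the top 6.03% of the ERG list and the top 10.6% of the Vector list. The ratio after depth was 1.46 (1.05 to 2.07), beside a median of 1.43 over all shared peaks. 7 more ERG-library peaks and 3 more Vector-library peaks lay within 50 kb of MCL1, all of them nearer to ADAMTSL4 or ENSA. A peak on the start of ENSA had 93 fragments in the ERG library (150629257 to 150629605), higher than 99.1% of unshared ERG-library peaks by q-value, and none in the Vector library.

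**Figure D2:**
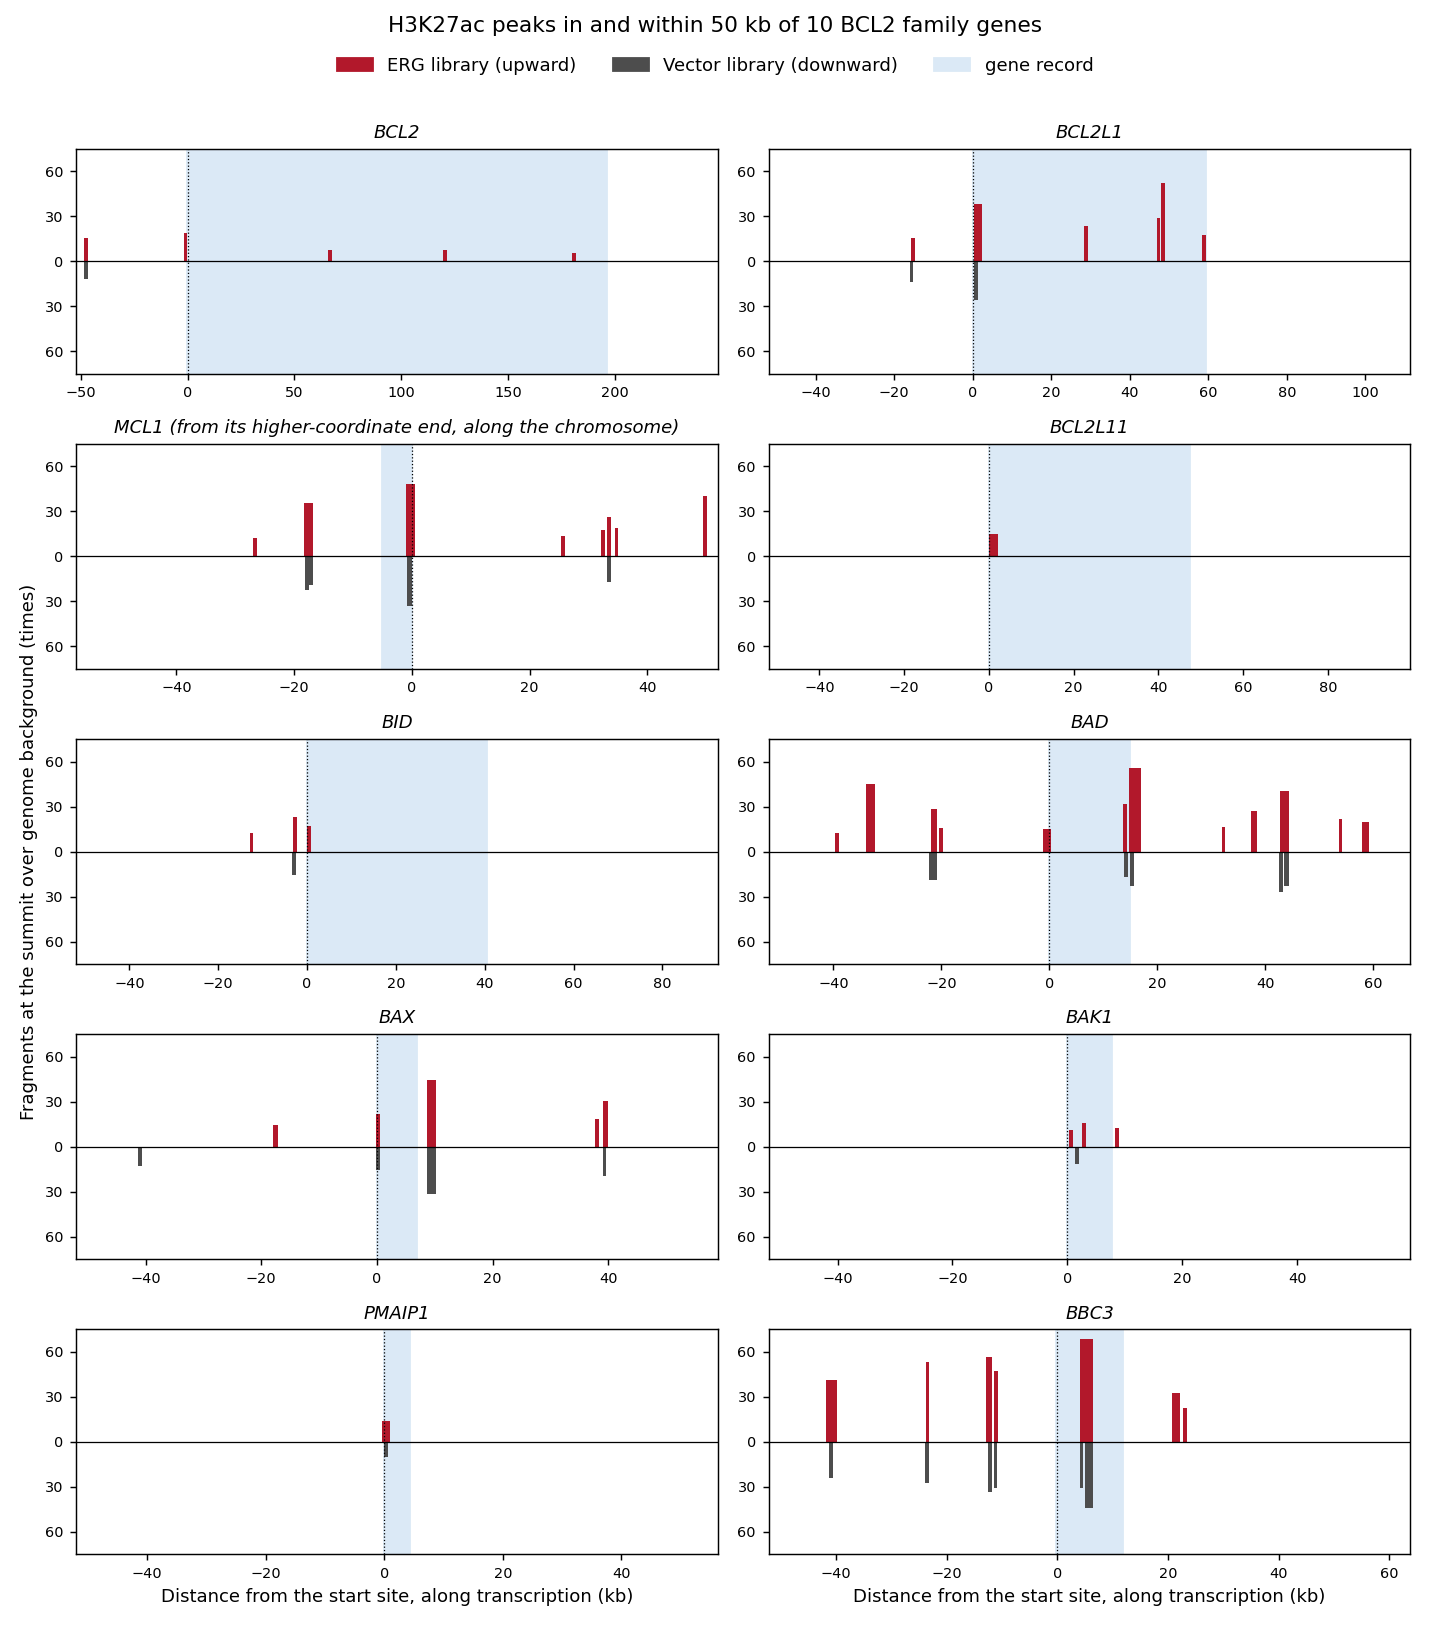
Peaks of both libraries around each gene, with distance from the start site along transcription on the horizontal axis (kb; for MCL1, distance from its higher-coordinate end along the chromosome) and summit fragments over the genome background on the vertical axis (times), ERG library upward in red and Vector library downward in grey. Windows reach 50 kb beyond the pale gene record; PMAIP1 has a single pair of peaks, BCL2L11 a single ERG-library peak, and BAD and BBC3 sit in dense runs of peaks.

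Of the BH3-only genes, BCL2L11, BID and BAD had a start-site peak in the ERG library alone. BCL2L11, whose product BIM is raised when blood cells lose their cytokine, lies on chromosome 2 from 111120914 to 111168445. It had 1 peak in its whole window, in the ERG library, at 111120958 to 111123012. The peak was 2055 bp wide, began 44 bp inside the gene and held 34 fragments over a background of 9.73. The Vector library had no peak within 50 kb, and BCL2L11 was the only member for which that was so. At the Vector depth the peak would hold 23.5 fragments where 18 would make a peak. It dropped out of the shortened ERG list.

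BID, cleaved by caspase 8 to link death receptors to mitochondria, lies on chromosome 22 from 17734138 to 17774665. Its start-site peak was narrow, 328 bp at 17774122 to 17774449, with 40 fragments over a background of 14.1. The Vector list had no peak there, and at its depth the peak would hold 27.7 fragments where 23 would be needed. Another site 2.24 kb beyond the gene record, upstream of it, was found in both libraries, with 54 fragments in the ERG library (17776904 to 17777870) against 25 in the Vector library (17777443 to 17777748). The Vector library therefore did show acetylation close to BID, though not at its listed starts. One more peak, with 29 fragments and in the ERG library alone, lay 12.3 kb from the gene near MICAL3.

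BAD, which binds the guards when it is not phosphorylated, lies on chromosome 11 from 64269828 to 64284704 in a dense stretch with 20 other coding genes within 200 kb. Its start-site peak, in the ERG library alone at 64284409 to 64285822, had 35 fragments over a background of 6.58. The peak also lay inside GPR137, which overlaps BAD, and within 1 kb of a listed GPR137 start. Scaled to the Vector depth it would hold 24.2 fragments where 14 would make a peak. The window had 12 ERG-library peaks and 5 Vector-library peaks, but 3 and 1 of these had BAD as nearest or overlapping gene. The covered length was 12616 bp in the ERG library against 3976 bp in the Vector library, and 99.9% of coding genes had a smaller excess. The site with the highest ratio of all 20 shared member sites, at 64267677 to 64269913, ran from the end of PLCB3, a phospholipase gene, to the far end of BAD. This site also lay within 1 kb of a listed start of GPR137. It held 129 fragments in the ERG library against 37 in the Vector library. The ratio after depth was 2.41 (1.66 to 3.58), above 96.5% of shared peaks. The local background was also higher in the ERG library at this site, by 1.88 times after depth. The fold over local background was 4.22 in the ERG library against 3.17 in the Vector library. The next site, 64270493 to 64270868, also lay within 1 kb of a listed GPR137 start. It had 73 fragments in the ERG library against 27 in the Vector library, a ratio of 1.87 (1.19 to 3.03). The local background ratio after depth was 1.80 there. The fold over local background was 2.48 in the ERG library against 2.31 in the Vector library. An ERG-library peak on the starts of TRMT112 and PRDX5, a peroxiredoxin gene, had 104 fragments and no Vector-library counterpart.

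PMAIP1 and BBC3, the genes of NOXA and PUMA, differed in where their acetylation lay. PMAIP1, on chromosome 18 from 59899996 to 59904305, stood alone: no other coding gene lies within 200 kb, and the only peak of each library sat on its start. It had 32 fragments in the ERG library (59899622 to 59900963) against 16 in the Vector library (59900032 to 59900535), with backgrounds of 4.96 and 2.37. The ratio after depth was 1.39 (0.738 to 2.70), an interval that includes 1.

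BBC3, on chromosome 19 from 47220824 to 47232860, had the peak with most fragments of all members in each library, and it was not at the start. The peak lay inside the gene, with 159 fragments in the ERG library (47226268 to 47228521) against 71 in the Vector library (47226247 to 47227607). These are 68.7 and 44.3 times the genome level. The ratio after depth was 1.55 (1.17 to 2.08). The nearer edge was 4146 bp from the listed start in the ERG library and 5060 bp in the Vector library. A further Vector-library peak with 49 fragments (47228113 to 47228470) overlapped the same ERG-library peak. No peak of either list reached within 1 kb of the listed start, nor within 2.5 kb. Only 1 start is listed for BBC3, so a further start near the inner peak cannot be judged here. Upstream, a pair of sites 10.6 and 11.7 kb beyond the gene record was shared as well, with 109 and 131 fragments in the ERG library against 49 and 53 in the Vector library. All 6 Vector-library peaks of the window had a counterpart, and the 2 unshared ERG-library peaks lay near SAE1.

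Of the effectors, BAX had a start-site peak in both libraries and BAK1 one in the ERG library alone, low in its list. BAX, on chromosome 19 from 48954875 to 48961798, had 50 fragments in the ERG library (48954837 to 48955376) against 25 in the Vector library (48954904 to 48955200). The ratio after depth was 1.39 (0.841 to 2.34). A site with more fragments lay 1.64 kb beyond the gene at the start of FTL, the ferritin light chain gene that stores iron. It had 103 fragments in the ERG library against 51 in the Vector library. The fold over local background was lower there than at the BAX start. It was 3.32 beside 4.59 in the ERG library and 2.88 beside 3.66 in the Vector library. BAX was the member whose covered length differed least in proportion, 4415 bp in the ERG library against 2690 bp in the Vector library, a ratio of 1.64. A Vector-library peak with 21 fragments inside NUCB1, 40.7 kb from BAX, had no ERG-library counterpart.

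BAK1, on chromosome 6 from 33572552 to 33580276, had peaks at different sites in the libraries. The ERG library had 3 peaks with 29, 36 and 26 fragments, the last of them 350 bp downstream of the start (33579470 to 33579926). The Vector library had 1 peak with 18 fragments, 1580 bp downstream of the start (33578402 to 33578696), and none of the 4 overlapped. Both that peak and the ERG-library start-site peak were among the weakest of their lists, ranked by q-value at 99.1% of the Vector list and 96.4% of the ERG list. At the Vector depth the ERG-library start-site peak would hold 18.01 fragments where 19 would be needed, so it falls just short. With a start window of 2.5 kb BAK1 counted as both.

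Over all 10 genes, the sites found in the ERG library alone were as frequent as in the whole list. A Vector-library counterpart was missing for 31 of 51 ERG-library peaks, 60.8% (46.1 to 74.2), beside 58.9% of all ERG-library peaks. Of the 25 Vector-library peaks, 2 had no counterpart, 8% (0.984 to 26.0), beside 8.97%. The unshared share was 5 of 9 ERG-library peaks at starts, 8 of 11 elsewhere inside the genes and 18 of 31 outside them. Unshared ERG-library peaks had a median width of 457 bp, and shared ones of 1203 bp. Scaled to the Vector background, 26 of 31 would still make a peak, beside 88.6% of unshared peaks of the whole list. Scaled by the ratio at shared peaks, 18 of 31 would, beside 65.6%. Among the 5 start-site peaks all but that of BAK1 passed under both scalings.

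**Figure D3:**
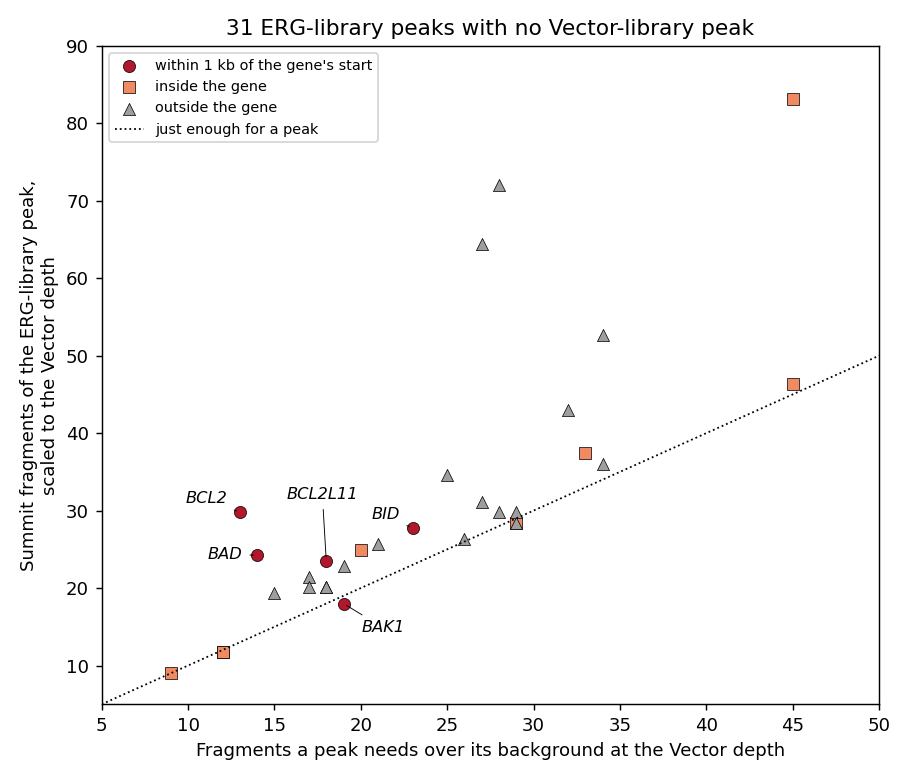
The 31 ERG-library peaks with no Vector-library peak: summit fragments scaled to the Vector depth (vertical axis) against the fragments that a peak would need over its scaled background (horizontal axis), with markers for peaks at starts, inside and outside the genes. BCL2 and BAD lie clearly above the dotted line of just enough fragments, BCL2L11 and BID above it, and BAK1 below it.

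At shared sites the ratios of the family lay close to those of the whole list. The 20 shared member sites had ratios after depth from 1.13 (at TPX2, beside BCL2L1) to 2.41 (far end of BAD, near a GPR137 start). Their median was 1.53, beside 1.43 for the 8071 shared pairs. All 20 were above 1, and for 11 the counting interval excluded 1, beside 37.8% of all shared peaks. These shares are not for peaks of like height, and higher counts give narrower intervals. Member peaks had a median of 50 fragments in the ERG library, beside 36 over all its peaks. In the Vector library the medians were 36 and 27. None of the 20 sites had an interval below 1, beside 0.731%. Summed over the 20 sites, the ratio was 1.597 (1.46 to 1.74), and 1.11 when the ratio at all shared peaks served as the depth. The local background was also higher in the ERG library, by a median of 1.496 times after depth, beside 1.37 at all shared peaks. The part of the background in the summit ratios was not tested. Shared peaks were wider in the ERG library at 18 of 20 sites, with a median width ratio of 2.05 beside 1.52 for all shared peaks. The exceptions were the inner BAD site beside GPR137 and the site at ESRRA.

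**Figure D4:**
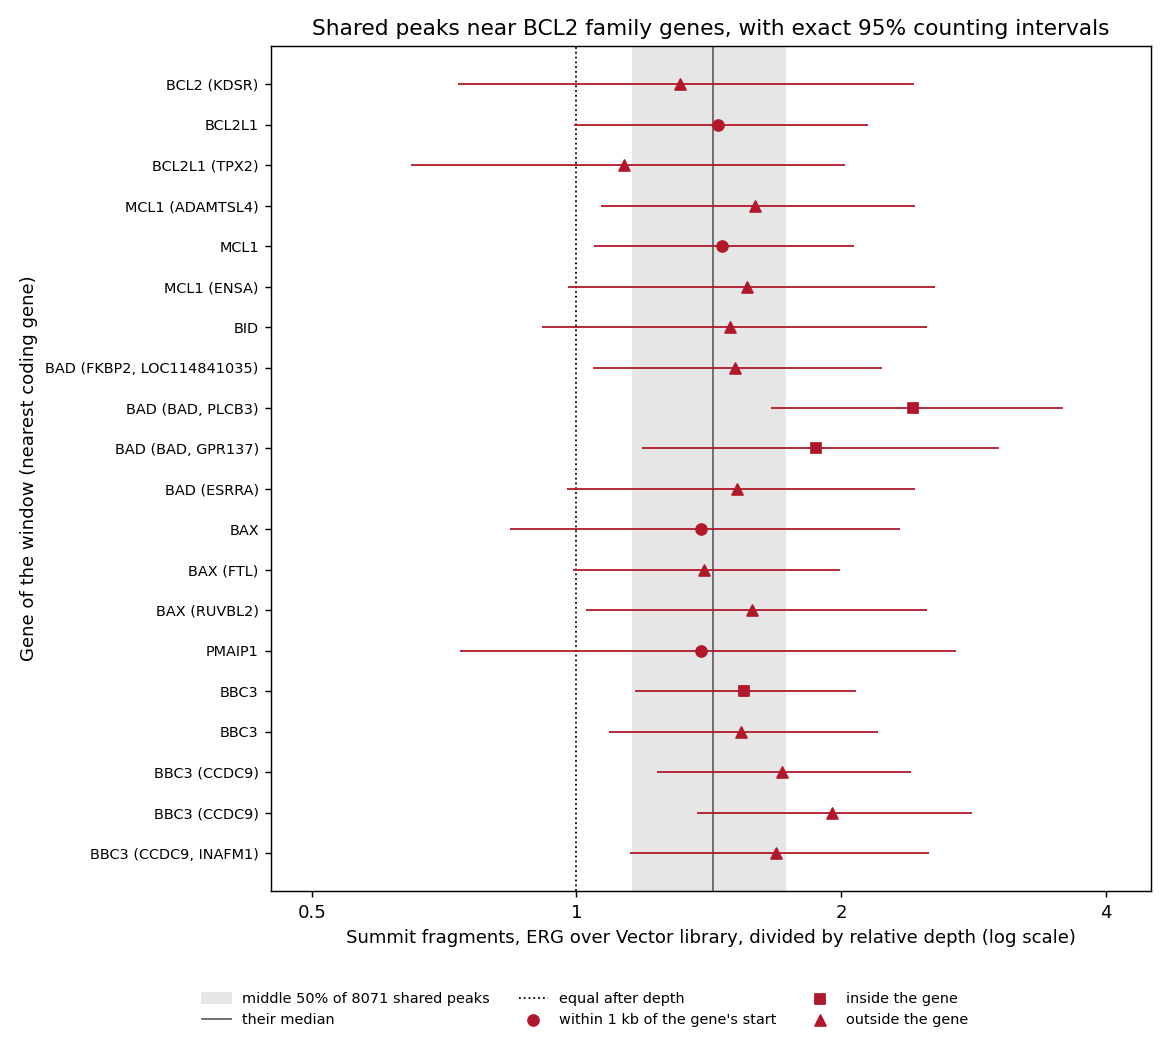
Ratio of summit fragments, ERG over Vector library, divided by the relative depth (horizontal log axis) for the 20 shared sites, with exact 95% counting intervals; the vertical axis names the gene of the window and, in brackets, the nearest coding gene where it is another or overlaps. The grey band is the middle 50% of the 8071 shared pairs, 1.16 to 1.73, and 3 of the 20 points lie to the right of it.

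All 10 genes had more length covered by peaks in the ERG library, as did 73% of coding genes. The excess ran from 838 bp at PMAIP1, covered over 1342 bp in the ERG library against 504 bp in the Vector library, to 8640 bp at BAD. The median excess was 2540 bp, beside 801 bp over all coding genes, which had a median of 2 ERG-library peaks beside 5 for the members. Of the 9 genes with any Vector-library coverage, 8 were covered over at least 2 times the length in the ERG library, beside 63.4% of such coding genes. BCL2 had the highest proportion, 3614 bp in the ERG library against 590 bp in the Vector library, although all of the Vector-library length lay at KDSR. Counting only peaks for which the member is the nearest or overlapping coding gene, 23 ERG-library and 10 Vector-library peaks remained, and the median excess was 947 bp. BCL2 and BCL2L11 had 4 and 1 such peaks in the ERG library against 0 in the Vector library.

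**Figure D5:**
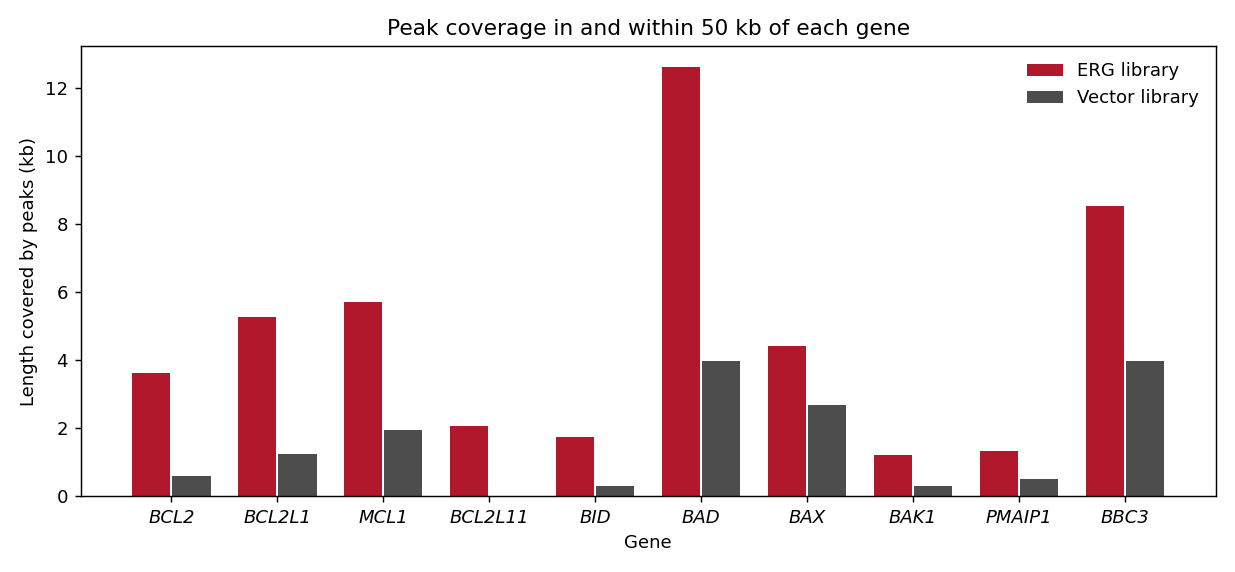
Length covered by peaks inside and within 50 kb of each gene (vertical axis, kb), ERG library left in red and Vector library right in grey. The ERG-library bar is the taller one at all 10 genes, most of all at BAD, and BCL2L11 has no Vector-library bar.

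In the rest of the apoptosis machinery the same 3 patterns were found, ERG library alone, both and neither. Of 44 further genes in 5 lists, 11 had a start-site peak in the ERG library alone, 19 in both and 14 in neither. Among the 25 that lacked a start-site peak in the Vector list the share was 44% (24.4 to 65.1), beside the 22.5% of all coding genes. The lists were chosen with earlier results of these data known. With the shortened ERG list the count fell from 11 to 4, and no share over all coding genes was taken for that list. Whether these genes differ from other genes therefore cannot be told. The other 13 BCL2 family genes were mostly without a start-site peak: BCL2L2 and BCL2L13 had one in both libraries, BCL2L12 and BNIP3L in the ERG library alone, and 9 in neither. BNIP3L encodes NIX, which clears mitochondria from maturing red cells, and its ERG-library peak held 44 fragments.

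Among 13 caspase and apoptosome genes, 7 had a start-site peak in both libraries, while 5 had theirs in the ERG library alone, among them CASP6, CASP10, ENDOG and AIFM1. CASP9 had none in either. CASP10, an initiator caspase, had 42 fragments over a background of 10.1. APAF1, the scaffold of the apoptosome, had 42 fragments in the ERG library against 22 in the Vector library. CASP8, the caspase that cuts BID, had 94 fragments in the ERG library against 26 in the Vector library. Of 5 inhibitor of apoptosis genes, XIAP, BIRC2, BIRC5 and BIRC6 had a peak in both libraries and BIRC3 in neither. Of 8 death receptor genes, 4 had a peak in both, and TNFRSF10B, a TRAIL receptor, and the adaptor TRADD in the ERG library alone, with 29 and 10 fragments. MDM2, a ubiquitin ligase gene, had a peak in both libraries, with 109 fragments in the ERG library against 37 in the Vector library. PIDD1 had one in the ERG library alone, with 56 fragments, and CDKN1A, the cell cycle inhibitor, in neither.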

How the data were processed

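H3K27ac chromatin immunoprecipitation was sequenced in 2 libraries of F36P cells. Per the labels' protocols, chromatin was fixed with 1% formaldehyde and cut with micrococcal nuclease. Bowtie2, MACS2, deepTools and the hg38 build are named in the submitters' processing notes; versions, settings and any use of input are not given in the sources used here. Each deposited list holds the peaks of 1 library. The deposited columns are a score, a fold enrichment at the summit (a ratio over local background), a −log10 p-value and a −log10 q-value, all by the authors. Exon and intron positions were not used here.

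Summit fragments and local background were solved from the deposited fold and −log10 p-value with the MACS2 formulas. A whole number fitted within a relative error of 0.0001 for 99.9% of peaks in each library. The lowest background gave the relative depth. Peaks were shared when they overlapped by at least 1 bp. A peak pair took the strongest Vector-library peak under an ERG-library peak. Pairs were kept where both peaks had a whole-number fit, which gave the 8071 pairs that ratios at all shared peaks refer to. Gene records and start sites came from RefSeq tables of GRCh38.p14, with starts for 15841 of 20033 coding genes and both record ends for the others. Shares have exact Clopper-Pearson 95% intervals and ratios exact conditional 95% intervals. No test was made. The members and gene lists were chosen with earlier results of these data known. The naming rule took all 10 members with their peaks, listed genes with a start-site peak in 1 library alone, and neighbours whose start a member's peak overlaps. Other neighbours and listed genes were named after their values were seen. Scripts used Python 3.11.15, pandas 2.3.3 and scipy 1.17.1. Some listed genes are not reported here.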

Additional observations from a re-analysis of the deposited data

How the results depend on the processing

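No paired analysis was possible because each group holds 1 library. Of 61 alternative values, 17 moved and none reversed. A 10 kb window, the gene record alone and nearest peaks alone left 24, 19 and 23 ERG-library peaks, 11, 8 and 10 Vector-library peaks, and median excesses of 1325, 499.5 and 947 bp, fewer by construction. The shortened ERG list left 24 ERG-library peaks, 25% of them unshared, 2 members and 4 pathway genes with a start-site peak in the ERG library alone, and a median excess of 1156 bp. These values have no counterpart over all genes or all peaks under the shortened list. With a −log10 q-value of at least 5, 0% of Vector-library peaks were unshared, and BAK1 lost its start-site peak, as it did under both thinned lists. With both gene ends in place of start sites BAD counted as both. The summed ratio at shared sites was 1.11 with the depth from all shared peaks and 1.12 from the deposited folds with no depth term. The thinning by the shared-peak ratio was chosen after seeing the data. A missing peak means that none was called, and not absence of the mark.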

Other observations

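Farther out, between 50 and 200 kb from the gene records, the members differed in how many peaks surround them. BCL2L11 had 4 ERG-library and 2 Vector-library peaks in that ring, although its own window held 1 peak, and 1 of the 2 Vector-library peaks had no ERG-library counterpart. BCL2 had 2 ERG-library peaks and 0 Vector-library peaks there, both unshared. PMAIP1 had none in either library, so its start-site peak was the only site within 200 kb, where no other coding gene lies. BAX had the most, 11 in the ERG library against 5 in the Vector library, in a region with 28 other coding genes within 200 kb. The distance was chosen after the data were examined, and peaks in the ring were not assigned to genes.

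Local background varied more between members than between the libraries. At member peaks it had a median of 7.46 times the genome level in the ERG library against 6.14 times in the Vector library, beside 3.36 and 2.998 times over all peaks. It was highest at the inner BBC3 peak in the ERG library, 16.2 times, and at FTL beside BAX in the Vector library, 10.6 times. It was lowest at the innermost ERG-library peak of BCL2, 1.35 times, and at PMAIP1 in the Vector library, 1.48 times.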
